A study of Mus musculus with 12 samples.

Results

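Immediate early genes are the first transcripts that a cell makes after a growth factor, a cytokine, mechanical stress or injury reaches it. Their chromatin is already accessible, and kinases such as ERK, JNK and p38 activate factors that are present before the stimulus, among them SRF with its ternary complex partners, CREB and AP-1 itself, so that transcription needs no new protein. Several products then act back on the response: AP-1 dimers of FOS and JUN proteins and EGR1 switch on later genes, whereas DUSP1 removes phosphate from the kinases and ZFP36 speeds the decay of cytokine messages. In the gut epithelium this programme is known from wounding and regeneration, and it is also known to respond to the handling of tissue during cell isolation.

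The 10 genes examined were Fos, Fosb, Jun, Junb, Egr1, Ier2, Ier3, Atf3, Dusp1 and Zfp36, taken by symbol from the 46517 genes of the count tables. They were followed in colonic intestinal epithelial cells of C57BL/6 mice aged 7 to 9 weeks, in 4 groups of 3 samples: untreated WT, WT given dextran sulfate sodium (DSS) for 48 h, untreated Nfkb2-/- and Nfkb2-/- given DSS for 48 h. DSS is a sulfated polysaccharide that injures the colonic epithelium, and Nfkb2 encodes p100, the precursor of the NF-kB subunit p52 and an inhibitor of other NF-kB dimers. The genotype label names no Cre line or tissue restriction of the deletion. The epithelium was released from the opened colon by EDTA, and the labels describe most of the cells obtained as EpCAM-positive and CD45.2-negative by flow cytometry.

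Libraries held 5595909 to 8117740 counts, and 12522 genes passed the expression filter, all 10 immediate early genes among them. Nfkb2 itself had 211 to 346 counts in the 6 WT libraries and 87 to 143 in the 6 Nfkb2-/- libraries, with no overlap. Which part of the gene is deleted is not given in the sources used here, so reads outside the deletion may be among those that remained. Summed levels of 8 epithelial markers were 21970.5 to 29326 CPM (counts relative to a library's total) over the 12 libraries and lowest in Nfkb2-/- under DSS. Leukocyte markers (15 genes) summed to 18.2 to 27.5 CPM in untreated WT and 55.9 to 57.8 after DSS in WT, and to 64.4 to 83.9 in untreated Nfkb2-/- and 104.8 to 156 after DSS in Nfkb2-/-, with none at 0 in every library of a group. Stromal markers (11 genes) summed to 2.53 to 6.62, 4.47 to 6.13, 7.59 to 11.7 and 14.7 to 20.4 CPM in the same order, with Lum and Pdgfra at 0 in every library. Leukocytes and stromal cells also express immediate early genes, and the part of these markers in the results below was not tested. In such bulk samples, fewer cells that express a gene and less RNA per cell cannot be told apart. The library numbers in the labels run through the WT samples before the Nfkb2-/- samples, so an effect of genotype and one of library order cannot be told apart either, whereas untreated and DSS samples alternate.

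The promoters are shown because these genes are classed together by how they are switched on, and 4 were chosen to cover an AP-1 subunit, the pair whose untreated levels differed by genotype (Junb and Dusp1) and the member that differed by genotype under DSS. The RefSeq promoter table (GRCm38.p6) held 8 of the 10 genes, and the 250 bases upstream of the start site are printed for Fos (chr12:85473640-85473889, plus strand), Junb (chr8:84978749-84978998, minus), Dusp1 (chr17:26508473-26508722, minus) and Zfp36 (chr7:28379229-28379478, minus). Each reads 5′ to 3′ on the gene's strand. Capitals mark matches to the CArG box (bound by SRF), the kappaB motif (bound by NF-kB), the cAMP response element TGACGTCA (bound by CREB and ATF factors), its shorter form TGACG, which the full element contains, and the TATA box TATAAA.
Fos: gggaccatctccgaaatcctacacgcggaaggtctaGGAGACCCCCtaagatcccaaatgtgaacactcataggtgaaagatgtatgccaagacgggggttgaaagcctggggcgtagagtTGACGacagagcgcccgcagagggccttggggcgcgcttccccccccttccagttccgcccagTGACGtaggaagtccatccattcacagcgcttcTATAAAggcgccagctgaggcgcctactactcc
Junb: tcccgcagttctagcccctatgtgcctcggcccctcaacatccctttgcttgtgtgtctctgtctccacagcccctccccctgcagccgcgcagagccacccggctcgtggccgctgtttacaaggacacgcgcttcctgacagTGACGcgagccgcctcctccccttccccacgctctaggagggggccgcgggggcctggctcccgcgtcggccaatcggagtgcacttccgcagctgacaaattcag
Dusp1: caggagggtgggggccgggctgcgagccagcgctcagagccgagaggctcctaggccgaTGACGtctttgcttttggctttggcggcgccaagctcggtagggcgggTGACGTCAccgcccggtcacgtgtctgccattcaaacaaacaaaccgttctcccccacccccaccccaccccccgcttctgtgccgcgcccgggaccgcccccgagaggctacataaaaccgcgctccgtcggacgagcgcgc
Zfp36: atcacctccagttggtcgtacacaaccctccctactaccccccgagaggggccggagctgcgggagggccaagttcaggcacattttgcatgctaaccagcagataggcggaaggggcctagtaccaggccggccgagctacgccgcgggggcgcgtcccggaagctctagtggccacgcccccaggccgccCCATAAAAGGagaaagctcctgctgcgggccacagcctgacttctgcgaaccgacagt

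Matches were sought on both strands. Within these 250 bases, Zfp36 was the only one of the 8 promoters with a CArG box (bases -58 to -49). The motif was found in 1.47% of 32851 promoters of the same length. Sequence farther upstream was not searched, and no promoter of Egr1 or Ier2 was available, so sites there are not excluded. Dusp1 was the only one with the full cAMP response element (-143 to -136; 1.55% of all promoters), and Fos was the only one with TATAAA (-33 to -28; 12.4%). The short element TGACG was present in 5 of the 8 (Fos, Fosb, Junb, Atf3 and Dusp1), against 17.8% of all promoters. A kappaB match stood in Fos, Fosb and Ier3, against 3.9% of all promoters, and the Sp1 motif GGGCGG, not capitalised above, in 7 of the 8, all but Junb, against 32.7%. No window held the AP-1 motif TGACTCA (4.46%) or the ETS motif CCGGAAGT (2.88%), which says only that these letters are absent from these windows. The 8 promoters were rich in G and C, from 54.4% to 68.8%, where the median promoter had 52.4%. These matches describe sequence and are not evidence of binding.

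In GENCODE M21 (GRCm38) all 10 are protein-coding. Fos (ENSMUSG00000021250.12) lies on chromosome 12 from 85473890 to 85477273, Fosb (ENSMUSG00000003545.2) on chromosome 7 from 19302696 to 19310051, Jun (ENSMUSG00000052684.4) on chromosome 4 from 95049034 to 95052222 and Junb (ENSMUSG00000052837.5) on chromosome 8 from 84974484 to 84978718. Atf3 (ENSMUSG00000026628.12) spans 191170296 to 191218039 of chromosome 1, Ier2 (ENSMUSG00000053560.4) 84661331 to 84662852 of chromosome 8, Ier3 (ENSMUSG00000003541.6) 35821684 to 35822923 of chromosome 17, Dusp1 (ENSMUSG00000024190.6) 26505590 to 26562128 of chromosome 17 and Zfp36 (ENSMUSG00000044786.5) 28376784 to 28380253 of chromosome 7. The libraries do not mark the strand, so reads over 232 exonic bases that Jun shares with its antisense gene Junos, 173 that Junb shares with Prdx2, 125 that Zfp36 shares with Gm44710 and 11 that Dusp1 shares with neighbouring models cannot be assigned to one gene. The other 6 share no exonic base with another gene. Short stretches of sequence shared with transcripts of other genes made up 4.21% of Zfp36, and many of those genes lie elsewhere. Such stretches made up 5.83% of Jun and 5.76% of Junb, shared with Junos and Prdx2 alone. How reads from them were counted is not given in the sources used here. The RefSeq windows printed above for Zfp36 and Dusp1 lie inside the GENCODE spans given here rather than upstream of them. The Zfp36 gene is 1 exon block, so its window is part of the exon length used for it.

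The members differed widely in level. Set against exon length, Fos was the most abundant at a mean of 708 CPM per kb over the 12 samples, followed by Jun at 309.9, Ier2 at 234, Junb at 166, Atf3 at 165, Dusp1 at 147, Egr1 at 90.6, Zfp36 at 69.5, Fosb at 31.8 and Ier3 at 14.5. Fos ranked at the 99.5th to 99.7th percentile of tested genes by CPM per kb in every library, untreated ones included, and Ier3 between the 66.8th and 82.7th. Among the FOS-family transcripts Fos, Fosb, Fosl1 and Fosl2, Fos made up 93.2% to 96.2% of the CPM per kb. Among the JUN family, Jun was the larger part and Jund made up at most 1.44%. The 10 genes together took 0.377% ± 0.0715 (SD, n = 3) of all counts in untreated WT and 0.640% ± 0.0128 after DSS, and 0.437% ± 0.0176 in untreated Nfkb2-/- and 0.590% ± 0.0110 after DSS.

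**Figure D1:**
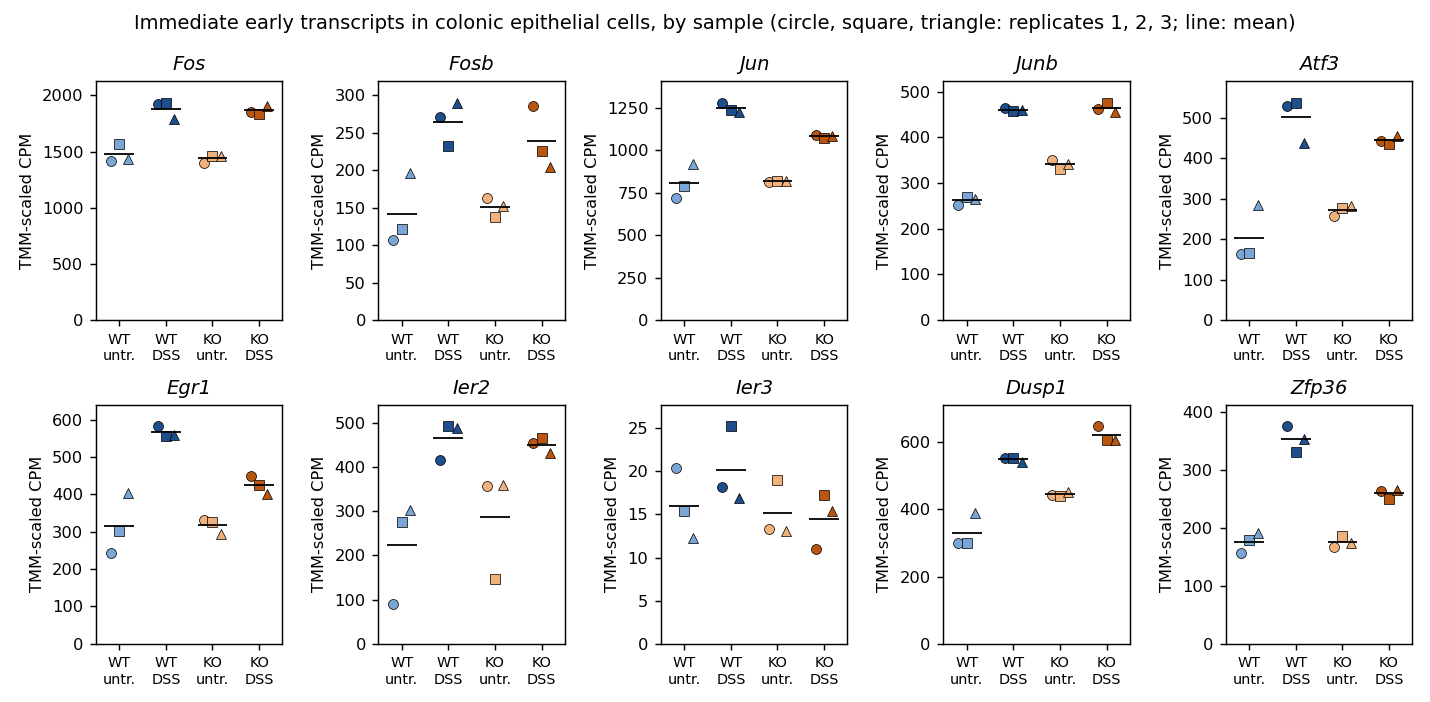
Level of each immediate early gene in every sample, as CPM scaled by TMM factors (vertical axes, linear, from 0), for untreated and DSS-treated WT and Nfkb2-/- (KO) cells. Points are single samples, with the symbol giving the replicate number, and lines are group means of 3. For every gene but Ier3, the DSS samples of a genotype lie above the untreated samples of that genotype.

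The first comparison asked how 48 h of DSS changed these genes in WT cells. Of the 10 genes, 8 rose and none fell: Fos, Fosb, Jun, Junb, Atf3, Egr1, Dusp1 and Zfp36 passed at an adjusted p under 0.05 (edgeR quasi-likelihood test, adjusted over all 12522 genes). Over all genes tested, 2.8% were called higher and 6.3% were called in either direction. The rises were modest, from 1.28-fold in Fos to 2.46-fold in Atf3, and the median log2 fold change of the 10 was 0.83 against 0.0063 over all genes. In 9 of the 10 the DSS and untreated samples did not overlap, where 10.7% of all genes were higher without overlap. Ier3 was the exception.

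Fos, the main partner of JUN proteins in AP-1, read 1420.3, 1565 and 1438 CPM in the untreated WT samples 1 to 3 and 1924, 1935 and 1791 CPM under DSS. This was a log2 fold change of 0.35 (SE 0.072, adjusted p = 0.00767), the smallest among the 8 genes called although Fos was the most abundant. Jun, whose product can also pair with itself, read 718, 789 and 918 CPM untreated and 1278, 1238 and 1226 CPM under DSS (log2 fold change 0.63, SE 0.088, adjusted p = 0.000387). The 3 DSS samples of Jun were close together, while the untreated ones were spread. Junb, a JUN protein with weaker activating ability, read 253, 270.03 and 265 CPM untreated and 463, 457 and 461 CPM under DSS, a log2 fold change of 0.81 (SE 0.079, adjusted p = 1.23e-05). Both groups of Junb were tight and lay far apart. Fosb rose by 0.90 on the log2 scale (SE 0.19, adjusted p = 0.0108), from 107 to 196 CPM over the untreated samples to 232 to 290 CPM under DSS, and without WT DSS sample 3 its adjusted p was 0.0507.

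Atf3, a stress-induced member of the ATF/CREB family that pairs with JUN proteins, had the largest change of the 10. It read 163, 165 and 283 CPM in untreated WT and 530, 537 and 437 CPM under DSS (log2 fold change 1.30, SE 0.17, adjusted p = 0.000244). Untreated sample 3 stood well above the other untreated samples and still below every DSS sample. Egr1, a zinc finger factor induced through SRF, read 242, 303 and 403 CPM untreated and 582, 558 and 559 CPM under DSS, a log2 fold change of 0.84 (SE 0.14, adjusted p = 0.00167). Its untreated values again differed more among themselves than its DSS values.

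The feedback genes rose as well. Dusp1, which dephosphorylates p38, JNK and ERK, read 298, 299 and 389.7 CPM untreated and 553, 552 and 542 CPM under DSS (log2 fold change 0.74, SE 0.10, adjusted p = 0.000334). Zfp36, which encodes the mRNA decay factor tristetraprolin, read 157, 179 and 192 CPM untreated and 376, 330.7 and 354 CPM under DSS. Its log2 fold change of 1.00 (SE 0.10, adjusted p = 1.50e-05) is a doubling in level, with the groups far apart. Of the remaining members, Ier2, a nuclear protein of early response, read 89.9, 276 and 303 CPM untreated and 415, 491 and 487 CPM under DSS. Its groups did not overlap, but with untreated sample 1 so low the log2 fold change of 1.06 had an SE of 0.36 and an adjusted p of 0.116. A fit blocked on the replicate number within each genotype, an alternative, called it (1.22, adjusted p = 0.0236), and DESeq2 did not (1.05, adjusted p = 0.165). The edgeR fit with no filter called it at the same log2 fold change of 1.06 but an adjusted p of 2.45e-15. The reason for so large a gap in adjusted p was not tested. Ier3, a regulator of cell survival and the least abundant member at 62 to 189 counts per library, overlapped between the groups (12.2 to 20.4 CPM untreated, 17.0 to 25.2 under DSS; log2 fold change 0.33, 95% interval -0.23 to 0.89, adjusted p = 0.611).

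**Figure D2:**
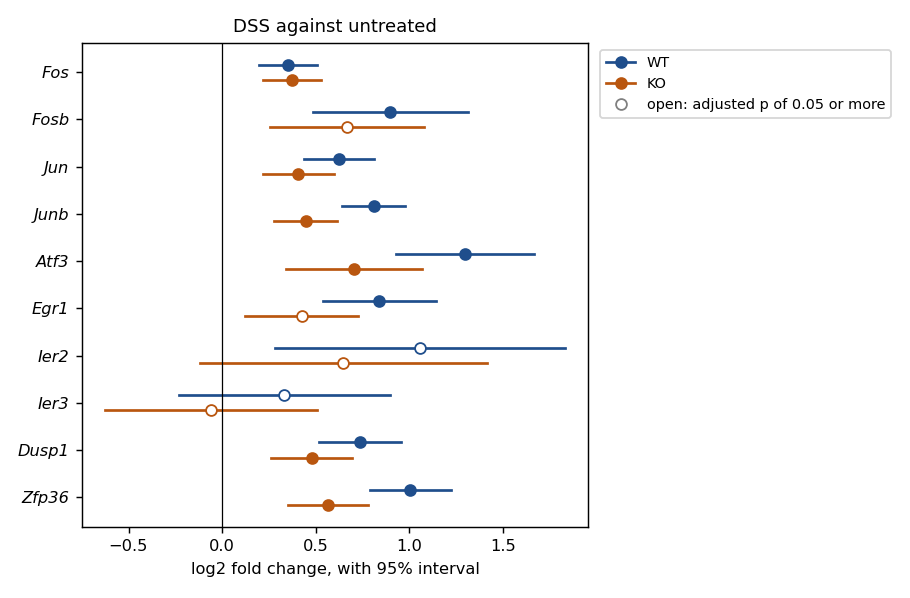
Log2 fold change of each immediate early gene under DSS (horizontal axis) in WT and in Nfkb2-/- (KO), with 95% intervals from the edgeR quasi-likelihood fit over 12 samples; open symbols have an adjusted p of 0.05 or more. All 10 WT values lie above 0, from 0.33 in Ier3 to 1.30 in Atf3, and 9 of the 10 Nfkb2-/- values lie above 0, from 0.37 in Fos to 0.70 in Atf3, with Ier3 at -0.058.

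The same question was asked in Nfkb2-/- cells. There 6 of the 10 rose and none fell: Fos, Jun, Junb, Atf3, Dusp1 and Zfp36, each also called in WT. Over all genes, 1.88% were called higher and 3.92% in either direction. The fold changes ran from 1.30-fold in Fos to 1.63-fold in Atf3 among those called, and the median log2 fold change of the 10 was 0.46 against 0.015 over all genes. Again 9 of the 10 did not overlap between groups, all but Ier3, where 12% of all genes were higher without overlap.

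Fos read 1398, 1464 and 1462 CPM in the untreated Nfkb2-/- samples and 1852, 1839 and 1908 CPM under DSS (log2 fold change 0.37, SE 0.072, adjusted p = 0.00939). Jun was nearly constant within each group, at 813, 816 and 817 CPM untreated and 1090.4, 1070.25 and 1085 CPM under DSS (log2 fold change 0.41, SE 0.088, adjusted p = 0.0166). Junb read 350.4, 330.3 and 341 CPM untreated and 461, 476 and 456 CPM under DSS, a log2 fold change of 0.45 (SE 0.078, adjusted p = 0.00477). The AP-1 transcripts thus lay in separate ranges before and under DSS in this genotype too. Atf3 read 257, 277 and 283 CPM untreated and 442, 435 and 454 CPM under DSS (log2 fold change 0.70, SE 0.17, adjusted p = 0.0324). Dusp1 read 443, 438 and 452 CPM untreated and 646, 607 and 606 CPM under DSS (log2 fold change 0.48, SE 0.10, adjusted p = 0.0158). Zfp36 read 167, 187 and 174 CPM untreated and 264, 250.4 and 266 CPM under DSS (log2 fold change 0.57, SE 0.10, adjusted p = 0.00497).

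The other 4 did not pass in Nfkb2-/- cells, although Fosb, Egr1 and Ier2 did so in the fit with no filter on low counts. For Ier2 that fit gave a log2 fold change of 0.63 with an adjusted p of 2.90e-05, far from the main fit's 0.420. The reason for this gap was not tested. Fosb read 162, 137 and 152 CPM untreated and 286, 226 and 205 CPM under DSS, without overlap (log2 fold change 0.67, SE 0.19, adjusted p = 0.0745, but 0.0197 in DESeq2), and Egr1 read 331, 326 and 295 CPM untreated and 449, 426 and 402 CPM under DSS, also without overlap (0.42, SE 0.14, adjusted p = 0.126). Ier2 read 358, 146 and 358 CPM untreated and 454, 465 and 431 CPM under DSS (0.65, SE 0.36, adjusted p = 0.420). One untreated library, sample 2, was again far below the others for this gene, as WT sample 1 was in its group. Ier3 ranged from 13.1 to 19.0 CPM untreated and from 10.96 to 17.2 CPM under DSS (-0.058, 95% interval -0.63 to 0.51). The calls of Junb and Zfp36 held when any 1 of the 12 libraries was left out, whereas Jun lost its call without any 1 of the 6 Nfkb2-/- libraries, Atf3 without any 1 of these or WT DSS sample 1, Dusp1 without any 1 of these 6 other than DSS sample 3, and Fos without untreated sample 1, so that as few as 2 members were called. Fosb and Egr1 passed without untreated WT sample 1 (adjusted p = 0.0384 and 0.0316) or 3 (0.00837 and 0.0149). Same-numbered Nfkb2-/- samples deviated weakly together (r = 0.20, 0.11 and 0.13, against 0.014, 0.12 and 0.13 in WT). In a fit blocked on that number within each genotype Fosb passed (0.66, adjusted p = 0.0161) and 7 of the 10 were called.

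**Figure D3:**
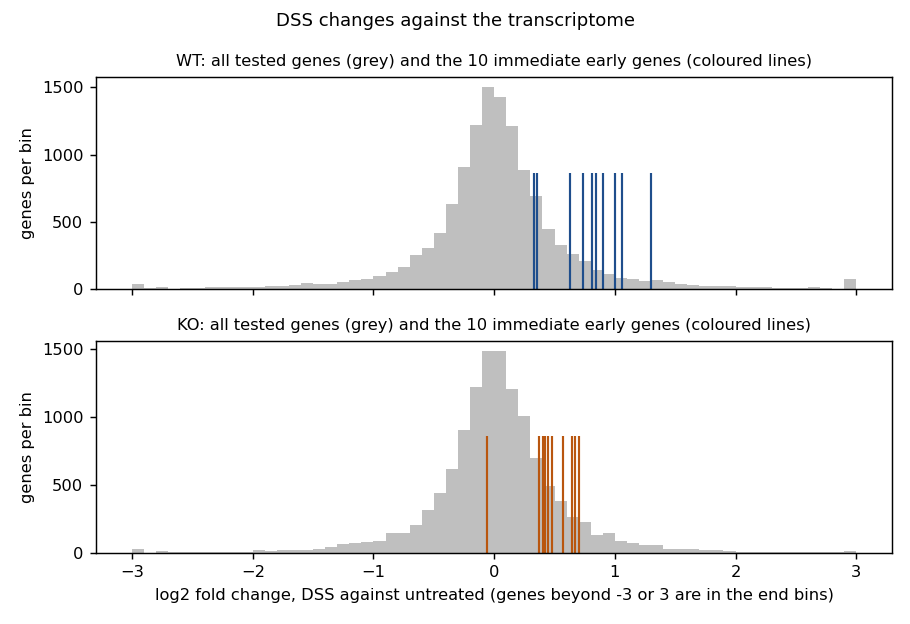
Distribution of log2 fold changes under DSS over all 12522 tested genes (grey; vertical axis, genes per bin) in WT and Nfkb2-/- (KO), with a coloured line at each of the 10 immediate early genes. The median gene lies at 0.0063 in WT and 0.015 in Nfkb2-/-, and all but one of the lines in Nfkb2-/-, Ier3, lie to its right.

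The next comparison asked whether the genotypes differed before treatment. Junb and Dusp1 were higher in untreated Nfkb2-/- cells than in untreated WT cells, and the other 8 did not pass. This is 2 of 10, where 1.72% of all genes were called higher and 3.48% in either direction. Junb averaged 341 ± 10.1 CPM (SD, n = 3) in Nfkb2-/- and 263 ± 8.90 in WT (log2 difference 0.38, SE 0.079, adjusted p = 0.0154), and Dusp1 averaged 445 ± 7.16 against 329 ± 52.5 CPM (0.43, SE 0.10, adjusted p = 0.0289). These were also the 2 members without overlap, where 9.81% of all genes were higher without overlap. Atf3 averaged 272 ± 13.1 against 204 ± 69.0 CPM, but the highest WT sample, at 283 CPM, was above every Nfkb2-/- sample (0.42, SE 0.17, adjusted p = 0.241). Fos, Jun, Egr1 and Zfp36 differed by 0.033 or less on the log2 scale in either direction, with 95% intervals no wider than -0.30 to 0.30, the interval of Egr1. Junb lost its call without Nfkb2-/- sample 1 or 3 (adjusted p = 0.0752 and 0.0683), and Dusp1 without WT sample 1 or 2, WT DSS sample 1 or any untreated Nfkb2-/- sample (adjusted p from 0.0508 to 0.130). Leukocyte marker sums also differed between these groups, 64.4 to 83.9 against 18.2 to 27.5 CPM, and their part was not tested.

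Under DSS, 8 of the 10 estimates were lower in Nfkb2-/- than in WT, with a median log2 difference of -0.16 against 0.0027 over all genes. Zfp36 was lower in Nfkb2-/- cells, at 260.1 ± 8.5 CPM against 353 ± 22.4 CPM in WT (log2 difference -0.44, SE 0.10, adjusted p = 0.0266), and no other member passed. Over all genes, 1.34% were called lower and 3.11% in either direction. Zfp36, Egr1 and Jun were lower in Nfkb2-/- without overlap, where 10.6% of all genes were, and Dusp1 was higher without overlap, where 11.7% were. Egr1 averaged 426 ± 23.3 against 566 ± 13.8 CPM (-0.41, SE 0.14, adjusted p = 0.155), Jun 1082 ± 10.5 against 1247 ± 27.6 CPM (-0.21, SE 0.088, adjusted p = 0.288) and Dusp1 619.98 ± 22.8 against 549 ± 6.28 CPM (0.18, SE 0.10, adjusted p = 0.475). Junb, which differed before treatment, averaged 464 ± 10.3 against 460.5 ± 2.97 CPM, a log2 difference of 0.012 with a 95% interval of -0.16 to 0.18. Fos differed by -0.013 with an interval of -0.17 to 0.14. The Zfp36 call was lost without WT DSS sample 1 or 3 or any of the Nfkb2-/- DSS samples (adjusted p from 0.0759 to 0.141), with the log2 difference between -0.49 and -0.40 throughout, and Egr1 passed without untreated WT sample 1 or 3 (adjusted p = 0.0363 and 0.0197). Leukocyte marker sums were 104.8 to 156 CPM in Nfkb2-/- and 55.9 to 57.8 CPM in WT here, and their part was not tested.

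**Figure D4:**
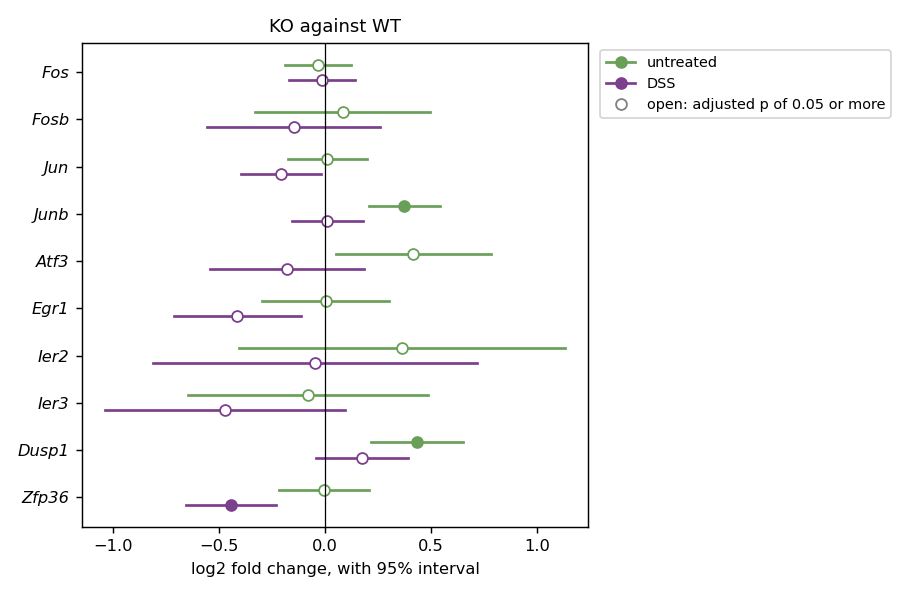
Log2 difference of each immediate early gene between Nfkb2-/- (KO) and WT (horizontal axis), untreated and under DSS, with 95% intervals from the edgeR fit; open symbols have an adjusted p of 0.05 or more. Junb (0.38) and Dusp1 (0.43) pass in untreated cells and Zfp36 (-0.44) under DSS.

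Whether DSS changed the genes differently in the 2 genotypes was tested by the interaction term, the log2 DSS change in Nfkb2-/- minus that in WT. No member passed, where 1.7% of all genes did (edgeR). The unadjusted p was under 0.05 for 3 members: Junb (-0.36, SE 0.11, adjusted p = 0.159), Zfp36 (-0.44, SE 0.14, adjusted p = 0.200) and Atf3 (-0.59, SE 0.24, adjusted p = 0.368). DESeq2 called 1 of the 10, Junb, with an adjusted p of 0.0406. The estimate was below 0, a smaller rise in Nfkb2-/-, for 9 of the 10, with a median of -0.38 against -0.0066 over all genes. Each value is the difference of the DSS changes given above. Fos was the exception at 0.020 (95% interval -0.20 to 0.24). The group means behind these 3 estimates differed in pattern: Junb was higher in untreated Nfkb2-/- cells and averaged 464 against 460.5 CPM under DSS, Zfp36 averaged 176 CPM in both untreated groups and was lower in Nfkb2-/- under DSS, and Atf3 overlapped between genotypes in both conditions. The result leaned on untreated WT sample 3: without it, Atf3 (-0.91, adjusted p = 0.00152), Egr1 (-0.63, adjusted p = 0.0238) and Dusp1 (-0.40, adjusted p = 0.0449) passed, and Atf3 was also higher in untreated Nfkb2-/- cells than in WT (0.73, adjusted p = 0.000845).

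That untreated WT group was the most variable. Sample 1 had the lowest value of the group for 9 of the 10 genes and sample 3 the highest for 7 (Fosb, Jun, Egr1, Ier2, Atf3, Dusp1 and Zfp36). The median over the members of log2 CPM, centred on each gene's mean over the 12 samples, was -0.61, -0.37 and -0.21 in untreated WT samples 1, 2 and 3, against -0.24, -0.25 and -0.24 in untreated Nfkb2-/-. Under DSS it was 0.38, 0.43 and 0.37 in WT and 0.25, 0.20 and 0.21 in Nfkb2-/-. No untreated sample reached a DSS sample on this measure, and the DSS samples of the 2 genotypes did not overlap. Ier2 stood apart from the others through its 2 low libraries, untreated WT sample 1 with 617 counts and untreated Nfkb2-/- sample 2 with 1196.

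**Figure D5:**
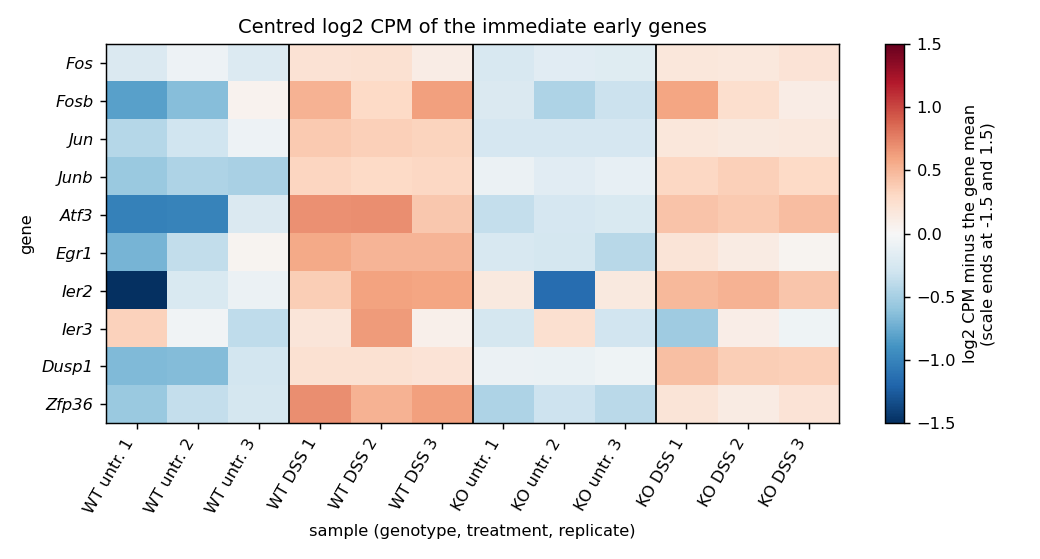
Log2 CPM of each immediate early gene minus the gene's mean over the 12 samples (colour scale from -1.5 to 1.5, values beyond it drawn at its ends), by sample. Untreated columns are mostly blue and DSS columns mostly red in both genotypes, with Ier3 following neither, and Ier2 is darkest blue in untreated WT sample 1 and untreated Nfkb2-/- sample 2.

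The order of group means, from low to high, was untreated WT, untreated Nfkb2-/-, Nfkb2-/- under DSS and WT under DSS for Fosb, Jun, Egr1, Ier2 and Atf3. In each of these genes the untreated groups of the genotypes overlapped, and in Fosb, Ier2 and Atf3 the DSS groups overlapped too. For Fos and Zfp36 the untreated groups changed places, with overlap in both, and for Ier3 all neighbouring groups overlapped. Junb and Dusp1 alone had their highest mean in Nfkb2-/- under DSS, and Dusp1 was the single member whose 4 groups were all apart from their neighbours in the order. The composition of the JUN family depends on Jun as well as Junb. In untreated cells Junb was higher in Nfkb2-/-, while Jun averaged 815 CPM against 808 in WT. Under DSS Junb averaged 464 CPM in Nfkb2-/- against 460.5 in WT, and Jun 1082 against 1247. Junb made up 31.0% ± 2.18 (SD, n = 3) of the JUN-family CPM per kb in untreated WT and 36.5% ± 0.725 in untreated Nfkb2-/-, a difference of 5.53 points, and 33.6% ± 0.573 and 37.0% ± 0.796 under DSS, a difference of 3.38 points. Each difference had an exact two-sided permutation p of 0.1, the smallest that 20 rearrangements of 3 against 3 samples allow, and all Nfkb2-/- samples lay above all WT samples of the same treatment. The shares come from the same Junb and Jun values compared above, so they are not separate support for a genotype difference.

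Related genes were followed in lists made with earlier results of these data known. Other AP-1 subunits and partners (10 genes, 7 tested) had 1 gene called in WT under DSS, Batf2 (56.7 to 81.0 CPM in group means, log2 fold change 0.51, adjusted p = 0.0302), and 2 in Nfkb2-/-, Batf2 (0.52, adjusted p = 0.0436) and Mafk, a small MAF protein (0.60, adjusted p = 0.0263). Among other EGR and NR4A factors (8 genes, 4 tested), the orphan nuclear receptor Nr4a1, itself an immediate early gene, was called. Nr4a1 read 13.7, 14.3 and 25.8 CPM in untreated WT and 56.2, 55.1 and 49.2 after DSS, and 36.3, 47.5 and 43.2 in untreated Nfkb2-/- and 57.99, 66.1 and 64.6 after DSS. It rose in WT (1.58, SE 0.22, adjusted p = 0.000320), was already higher in untreated Nfkb2-/- cells (1.24, SE 0.22, adjusted p = 0.00473), and had a change of 0.57 (adjusted p = 0.168) under DSS there. The interaction term of Nr4a1 did not pass (-1.01, SE 0.30, adjusted p = 0.141), so a different DSS change by genotype was not shown. Its group means had the order seen for Junb and Dusp1. None of the 8 KLF factors was called in any comparison. Of 9 other dual-specificity phosphatases none was called under DSS in either genotype, and Dusp6, an ERK phosphatase, was lower in untreated Nfkb2-/- cells (153 ± 9.89 against 233 ± 26.6 CPM; -0.60, adjusted p = 0.00577), opposite to Dusp1.

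Other early response genes (29 genes, 26 tested) had 8 called higher and 1 lower in WT under DSS, and 3 higher and 1 lower in Nfkb2-/-, with list medians of 0.49 and 0.31. Socs3, a feedback inhibitor of STAT3 signalling, rose in both (2.19, adjusted p = 1.24e-05, and 1.37, adjusted p = 0.00179), and Csrnp1, a nuclear factor induced by AXIN1, rose to a like extent (0.84, adjusted p = 0.00405, and 0.90, adjusted p = 0.00467). By genotype under DSS, 1 gene of the list was called higher in Nfkb2-/- and 2 lower. Socs3 was among the lower (-0.79, adjusted p = 0.0483), and its interaction term did not pass (-0.81, adjusted p = 0.286). Ccn1, a secreted matrix protein of the YAP and SRF response, read 29.9, 40.2 and 41.9 CPM in untreated WT and 107, 97.3 and 104 under DSS, but 67.9, 56.6 and 64.0 in untreated Nfkb2-/- and 50.9, 49.5 and 61.2 under DSS. It rose in WT (1.46, adjusted p = 2.33e-05) and not in Nfkb2-/- (-0.22, adjusted p = 0.542), and the interaction passed (-1.68, SE 0.21, adjusted p = 0.000537). Sgk1, a kinase that raises sodium uptake, fell in both, with log2 fold changes of -2.31 in WT (adjusted p = 2.30e-08) and -1.49 in Nfkb2-/- (adjusted p = 1.70e-05), and the fall was smaller in Nfkb2-/- (interaction 0.82, adjusted p = 0.0156). The 18 upstream kinases and SRF-related factors had 2 calls in WT under DSS, Map2k1, which encodes the ERK kinase MEK1 (-0.47, adjusted p = 0.0219), and Mapk9, which encodes JNK2 (0.59, adjusted p = 0.0446), and none in Nfkb2-/-.

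Heat-shock chaperones, transcripts that also respond to tissue handling, moved in both directions. Their 12 genes summed to 3809.5 to 4537 CPM in untreated WT and 4383 to 4599 after DSS, and to 3836 to 4130.3 in untreated Nfkb2-/- and 3479 to 3598 after DSS. Of 10 tested, 2 rose in WT under DSS, Bag3 and Dnajb1 (0.96, adjusted p = 1.29e-05), while in Nfkb2-/- Dnajb1 (0.63, adjusted p = 0.00158) and Hspa1a rose and Hsp90aa1 (-0.45, adjusted p = 0.0493) and Hspd1 (-0.41, adjusted p = 0.0441) fell. The list median was 0.084 in WT and -0.12 in Nfkb2-/-. By genotype under DSS, all 10 estimates were lower in Nfkb2-/- than in WT, with a median of -0.31, and 3 passed: Dnajb1 (-0.48, adjusted p = 0.0104), Hsp90aa1 (-0.59, adjusted p = 0.0143) and Hspa1a (-1.42, adjusted p = 0.000720). This is the direction of Zfp36 and of 8 of the 10 immediate early genes, and equally of 7 of the 8 epithelial markers (median -0.23). In untreated cells Hspa1a alone passed by genotype, lower in Nfkb2-/- (-3.34, adjusted p = 9.91e-07). Hspa1a has a near-identical copy, Hspa1b, and how reads shared by both were counted is not given in the sources used here. The part of cell handling in the immediate early values was not tested.

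Among markers of cell type, Krt20, a keratin of mature surface colonocytes, fell under DSS in both genotypes (-1.33, adjusted p = 5.15e-06, and -1.34, adjusted p = 2.09e-05), and Vil1, the microvillus protein villin, was lower in Nfkb2-/- than WT under DSS (-0.55, adjusted p = 0.0386). Of 10 leukocyte markers tested, 3 rose under DSS in WT (Cd3e, Csf1r and Lyz2) and 1 in Nfkb2-/- (Lyz2), and 4 were higher in untreated Nfkb2-/- than WT (Cd3e, Laptm5, Lyz2 and Ptprc). The leukocyte antigen gene Ptprc averaged 9.32 ± 2.43 CPM in untreated WT and 27.8 ± 10.6 CPM in untreated Nfkb2-/- (1.57, adjusted p = 0.00607). Of the 2 stromal markers tested, Vim was higher in Nfkb2-/- in both conditions (1.34, adjusted p = 0.0300, and 1.52, adjusted p = 0.0130).

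Among the 8851 genes whose log2 CPM averaged 3 or more, the pattern over the 12 samples was compared with the median profile of the 10 members, as the root-mean-square difference of centred log2 CPM. Jun was the member nearest to that profile (0.078), followed by Junb (0.13), Egr1 (0.13), Zfp36 (0.15), Dusp1 (0.17), Fos (0.18) and Fosb (0.20), with Atf3 (0.27), Ier3 (0.42) and Ier2 (0.49) farther away. The median gene stood at 0.43, so Ier3 and Ier2 were about as far from the profile as a gene taken at large. The profile was made from the members' own values, so their nearness is partly built in. A gene without any variation would stand at 0.33, the root mean square of the profile itself. Outside the members, the nearest genes were Frrs1 (0.10), Tax1bp1 (0.11), Rfx1 (0.11), Sat1 (0.11) and Aldh1l1 (0.15).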

How the data were processed

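RNA of colonic epithelial cells was sequenced in 12 samples, 3 in each of 4 groups, by the SMART-seq2 method, which does not mark the strand, per the labels' protocols. Each deposited file lists raw read counts for every gene, as whole numbers with no normalization by the authors. The submitters' processing notes name STAR 2.5.2b, featureCounts 1.5.0 and GRCm38; the annotation and the counting settings are not given in the sources used here. The submitters call the samples biological replicates. No pair of replicates agreed within sampling noise (chi-square per degree of freedom 5.13 to 20.1).

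Counts were tested with edgeR 4.0.16 in R 4.3.3: filterByExpr kept 12522 genes holding 99.8% of counts, scaling was by TMM, the model had 1 coefficient for each group and used all 12 samples, and the two-sided quasi-likelihood F test was adjusted by Benjamini-Hochberg over all tested genes, with 0.05 as threshold. The script was tested on simulated data. CPM values carry the TMM factors, except marker sums and shares of all counts, which use library totals. Log2 CPM used a prior count of 2. Symbols matched 46005 of 46517 gene IDs in GENCODE M21, and its exon lengths gave CPM per kb. DESeq2 1.42.0, other scalings, other filters and leaving out each sample were alternatives.

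The members and lists were chosen with earlier results of these data known. Genes named from each list are those past the threshold in any of the 5 contrasts, up to 4 per list by smallest adjusted p; Bag3 and Laptm5 were named outside this rule after their values were seen, to complete a count. Same-numbered Nfkb2-/- samples deviated weakly together from their group means (r = 0.204, 0.106 and 0.127), the pairing coming from the numbers in the titles. WT samples did not in every pair (0.014, 0.12 and 0.13).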

Additional observations from a re-analysis of the deposited data

Results flagged for a closer look

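Among the listed related genes, 4 outside the 10 had a DSS change that differed between the genotypes by the interaction term (edgeR, adjusted over all genes), of 213 genes in all that passed. Ccn1 had a difference of -1.68 on the log2 scale (adjusted p = 0.000537), rising in WT and not in Nfkb2-/-. Sgk1 had a difference of 0.82 (adjusted p = 0.0156), with a smaller fall in Nfkb2-/- than in WT. Arc had a difference of -1.27 (adjusted p = 0.0417), averaging 11.8 CPM untreated and 23.8 CPM after DSS in WT, against 21.5 and 17.9 CPM in Nfkb2-/-. It falls outside the rule for named genes and was added after its values were seen. Hspa1a had a difference of 1.91 (adjusted p = 0.00173). It averaged 41.6 CPM untreated and 51.6 CPM after DSS in WT, against 4.11 and 19.2 CPM in Nfkb2-/-. How reads shared with its near-identical copy Hspa1b were counted is not given in the sources used here.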

How the results depend on the processing

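Of 930 values of single members under alternatives, 845 kept their direction and side of the threshold, 33 lost the call, 21 gained it and 31 changed sign. No scaling moved the median of all genes by over 0.1. Leaving out one sample gave 7 to 8 members called for DSS in WT, 2 to 8 for DSS in Nfkb2-/-, 0 to 3 for genotype untreated, 0 to 2 for genotype under DSS and 0 to 3 for the interaction. Over all genes these ranges were 483 to 958, 235 to 710, 212 to 725, 160 to 566 and 152 to 350. The members' median ran from 0.68 (without untreated WT sample 1) to 0.96 (without sample 3) for DSS in WT, -0.040 to 0.30 (the same 2 samples) for genotype untreated and -0.45 to -0.23 (samples 3 and 1) for the interaction. DESeq2 called 800 genes for DSS in Nfkb2-/-, 790 for genotype untreated, 661 for genotype under DSS and 360 for the interaction, and 8, 7, 2, 1 and 1 members in the order above. Without a filter the counts were 776, 703, 642 and 356, and 9 (Ier2 gained), 9 (Fosb, Egr1 and Ier2), 3 (Atf3), 2 (Egr1) and 1 (Atf3) members in that order. The causes were not tested.

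Changes of sign concerned values within 0.1 of 0, other than Ier2 for genotype untreated (0.37). For genotype untreated, Egr1 became -0.0070 with RLE factors and with DESeq2, Fos 0.0033 and Zfp36 0.033 with upper-quartile scaling, and Zfp36 0.010 without a filter; the Fos interaction became -0.021 with upper-quartile scaling. Leaving out one sample gave, for genotype untreated, -0.16 to 0.22 in Egr1, -0.064 to 0.0076 in Fos, -0.084 to 0.39 in Fosb, -0.017 to 0.68 in Ier2, -0.28 to 0.13 in Ier3, -0.069 to 0.11 in Jun and -0.083 to 0.063 in Zfp36. Under DSS the genotype difference ran from -0.049 to 0.0061 in Fos and -0.015 to 0.025 in Junb. The Fos interaction ran from -0.024 to 0.045 and the Ier3 change in Nfkb2-/- from -0.20 to 0.14.

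With the replicate number as a block over all samples, the members called stayed at 8, 6, 2, 1 and 0, with 695, 409, 345, 290 and 186 genes called over all. The block within each genotype was added after seeing the data. It called 892 genes for DSS in WT, 616 in Nfkb2-/- and 263 for the interaction, with 9, 7 and 0 members: Ier2 was gained in WT (1.22, adjusted p = 0.0236) and Fosb in Nfkb2-/-. Pairing changed no other call among the members. The low depth of Ier3, 62 to 189 counts, limits what can be seen for it.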
